A study of Mus musculus with 8 samples.

Results

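The genes described here encode the proteins of the cytosolic ribosome, together with their paralogs and gene copies. They are 94 of the 36255 genes in the count table, taken by symbol: names that begin with Rpl or Rps followed by a number, Rplp0 to Rplp2, and Rpsa, without the S6 kinases (Rps6k) and without symbols that carry the pseudogene mark -ps. Of these, 46 belong to the large subunit and 31 to the small subunit, 77 core genes in all. The other members are 5 paralogs known from particular tissues or states (Rpl3l, Rpl10l, Rpl22l1, Rpl39l and Rps27l), 11 further copies, and Rps19bp1, which matches by name but encodes a binding protein of RPS19. The 94 genes lie on 19 chromosomes, as far as the 93 that matched the GENCODE annotation of mouse build GRCm38 show.

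The data are poly(A)-selected RNA-seq counts from mouse embryonic stem (ES) cells and from embryoid bodies on day 2 of differentiation (EBd2), aggregates in which ES cells leave the pluripotent state. Each stage was sampled in cells with a floxed, undeleted Skp1a gene (fl/fl) and in cells labelled Skp1a knockout (KO), SKP1 being the adaptor that joins F-box proteins to CUL1 in SCF ubiquitin ligases. The series compares expression between the genotypes at each stage. The 4 groups are fl/fl ES cells (lots 1 and 2), KO ES cells (lots 1 and 12), fl/fl EBd2 (lots 1 and 12) and KO EBd2 (lots 1 and 2), with 2 libraries each. The sources used here do not give what a lot is, how Skp1a was deleted, or whether a line is 1 clone. The p-values therefore cover no more than the spread among these 8 libraries, and that spread may be technical. The medium is given only as a standard one for ES cells and embryoid bodies.

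A ribosome holds a single copy of most of its proteins, and cells make these proteins in step with ribosomal RNA. The messages of ribosomal proteins are among the most abundant in growing cells. They carry a run of pyrimidines at their first bases, the TOP motif (terminal oligopyrimidine), through which LARP1 and the mTOR pathway control their translation and stability. Some ribosomal proteins have paralogs that can take the parent's place in the ribosome: RPL3L in heart and skeletal muscle, RPL10L and RPL39L in male germ cells, RPL22L1 and RPS27L in several tissues, with Rps27l also known as a target of p53.

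Libraries held 21545868 to 23343471 counts in ES cells and 7858452 to 10055667 in EBd2, so the depth differs by stage. Within EBd2 both KO libraries (9260644 and 10055667) also held more counts than both fl/fl libraries (7858452 and 9133497). Mitochondrial transcripts took 1.73% to 1.76% of counts in fl/fl ES cells, 2.42% to 2.43% in KO ES cells, 2.28% to 2.70% in fl/fl EBd2 and 3.15% to 3.24% in KO EBd2. Skp1a itself was at 420 and 430.3 CPM (counts brought to the same library size with TMM factors, which set most genes of the libraries level) in the fl/fl ES cell libraries and at 369 and 361 CPM in the KO ones. The EBd2 libraries had 401 and 389 CPM in fl/fl against 286 and 290 CPM in KO. The libraries labelled KO were thus lower in Skp1a but kept most of its message, and counts summed over a gene do not show whether exons were removed. The sample titles set the groups here. They conflict with the tissue field of the labels, in which each KO library is an ES cell and each fl/fl library an embryoid body. Fgf5, a marker of the epiblast state that ES cells enter, was at 0.278 to 0.892 CPM in the 4 ES cell libraries and at 20.1 to 57.1 CPM in the 4 EBd2 libraries, as the titles have it.

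The first bases of several members are shown because the results below turn on these genes, and because the TOP motif lies there. Each window runs from 20 bases before the transcription start to 20 bases from it, in RefSeq's GRCm38 annotation, 5′ to 3′ on the gene's own strand. Capitals mark the longest unbroken run of C and T that touches the 10 bases on either side of the start.
Rps26 (chr10:128626487-128626526, minus strand): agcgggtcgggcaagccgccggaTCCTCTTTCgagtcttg
Rpl13a (chr7:45128726-45128765, minus strand): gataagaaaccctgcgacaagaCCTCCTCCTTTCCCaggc
Rps27 (chr3:90213629-90213668, minus strand): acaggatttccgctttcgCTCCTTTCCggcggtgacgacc
Rps27l (chr9:66946066-66946105, plus strand): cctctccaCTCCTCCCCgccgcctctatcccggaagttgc
Rpl22l1 (chr3:28805488-28805527, plus strand): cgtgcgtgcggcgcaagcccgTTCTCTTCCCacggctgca
Rpl39 (chrX:37085203-37085242, minus strand): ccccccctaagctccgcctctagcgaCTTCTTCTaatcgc
Rpl39l (chr16:10170208-10170247, plus strand): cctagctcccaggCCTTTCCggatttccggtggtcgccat
Rpl10 (chrX:74270796-74270835, plus strand): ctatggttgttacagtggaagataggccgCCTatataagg
Rpl10l (chr12:66284382-66284421, minus strand): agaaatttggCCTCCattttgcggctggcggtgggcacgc
Rpl3l (chr17:24727806-24727845, plus strand): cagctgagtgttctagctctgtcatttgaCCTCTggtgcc
The run was 14 bases long in Rpl13a, 10 in Rpl22l1 and 9 in Rps26, Rps27 and Rps27l. It was 5 bases in Rpl10l and Rpl3l and 3 bases in Rpl10. In Rps27l, Rpl39l and Rpl10l the run ends before the annotated start and so lies outside the message as annotated. The same holds for the run of 14 bases in the core gene Rpl4, whose window is not shown, so this place is not particular to paralogs.

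Of the 77 core genes 57 matched RefSeq's table of promoters. Among these 57, 35 (61.4%) had a run of at least 6 C or T bases touching that interval, against 33.5% of the 27025 genes in the table. The letters CCGGAAG, on either strand in the 250 bases before the start, were found in 18 (31.6%) of the core genes against 7.83% of all genes. CACGTG was found in 5 (8.77%) against 6.86% of all genes, and TTCCCGCC in 4 (7.02%) against 2.13%. Neither Rpl10l nor Rpl10 had any of the 3 words or a run of that length. These are matches of letters at annotated starts and show no binding, and a start annotated a few bases off would move the window.

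Levels of the core genes spanned a wide range in every group. Per kilobase of exon, the median core gene stood at 370.5 CPM per kb in fl/fl ES cells, 341 in KO ES cells, 326 in fl/fl EBd2 and 200.4 in KO EBd2. Rplp1, a protein of the stalk that recruits translation factors, had the highest level per length in each of the 4 groups (2915, 2714, 2472 and 1497 CPM per kb, in the same order), though it is one of the genes whose sequence is poorly distinct (40.0% unique, as explained below). Rpl5, whose protein binds MDM2 when free of the ribosome, had the lowest (14.7, 13.6, 20.5 and 9.70 CPM per kb). How reads that match several genes were treated is not known, and ribosomal proteins have many processed copies in the genome. In 7 of the 77 core genes under 50% of the 50-base stretches of the transcript were found in no other GENCODE transcript, down to 16.0% in Rpl35 and 18.9% in Rpl36. Such levels are uncertain, and a low level per length, as in Rpl5 (51.1% unique), may be an undercount. Rpl10l (92.4% unique), Rps27l (88.8%), Rpl22l1 (85.4%), Rpl39l and Rpl3l (both 100%) are mostly distinct in sequence. Over the 77 core genes, log2 level per length and the unique percent had a Pearson r of -0.30 (Spearman's rho -0.38).

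In KO ES cells the ribosomal protein genes were slightly lower than in fl/fl ES cells. All 77 core genes had an estimate below 0, with a median log2 fold change of -0.13, where the median over all 16542 genes tested was 0.00. By the edgeR quasi-likelihood test 39 of the 77 were called lower at an adjusted p under 0.05 (24 of 46 in the large and 15 of 31 in the small subunit), where 12.8% of all genes tested were called lower and 23.7% in either direction. None was called higher by edgeR, at an unadjusted p under 0.05 or by DESeq2, which called 46 lower. That count depended on single libraries and on the scaling. When 1 fl/fl ES cell library was left out it fell to 20 (lot 1) or 9 (lot 2), and when 1 KO ES cell library was left out to 24 (lot 1) or 10 (lot 12). With scaling by library size only it was 10. The last setting put the median of all genes at 0.07, that of the core genes at -0.05, and 10 core estimates above 0.

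The clearest falls in KO ES cells were those of Rpl3, which lines the peptidyl transferase centre, and Rpl10a. Rpl3 was at 2820 and 2848 CPM in the fl/fl and at 2388 and 2327 CPM in the KO ES cell libraries. Both KO libraries were below both fl/fl libraries, a change of -0.27 ± 0.04 (log2 fold change ± SE throughout, n = 2 libraries per group, edgeR adjusted p = 0.000415), or -16.8%. Rpl10a was at 546 and 562 CPM against 475 and 467 CPM (-0.23 ± 0.03, edgeR adjusted p = 0.000563). Rpl8 (-0.20 ± 0.03), Rps26 (-0.20 ± 0.03) and Rps4x (-0.17 ± 0.03), the last an X-linked small subunit protein, also passed. The calls of these 5 genes held under every alternative setting tried. Rpl10, Rpl11, Rpl13a, Rpl23, Rpl36a, Rplp0, Rps10, Rps27a, Rps6 and Rpsa were called lower as well, with changes between -0.19 and -0.11, and each of these calls was lost with scaling by library size only and without at least 1 library. Rpl5, Rpl12, Rpl22, Rpl38, Rpl39, Rplp1, Rplp2, Rps12, Rps18, Rps19 and Rps27 did not pass in ES cells.

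In KO EBd2 the same set of messages stood far below fl/fl EBd2. All 77 core genes were called lower, where 31.5% of all genes tested were lower and 62.2% changed in either direction. The median log2 fold change was -0.76, a level of 0.590 times that in fl/fl, against a median of 0.00 over all genes tested. DESeq2 also called 77, and neither tool called any core gene higher. The large subunit (46 of 46, median -0.77) and the small subunit (31 of 31, median -0.70) fell together. With scaling by library size only, which raised the median of all genes to 0.23, 76 of 77 were called lower with a median of -0.53. The exception was Rps29, which then stood at -0.02 (edgeR adjusted p = 0.768). In bulk RNA a lower amount per cell cannot be told apart from a smaller share of cells that express a gene strongly.

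Rps26, a protein at the messenger RNA exit channel of the small subunit, fell furthest of the core genes in EBd2. It was at 876 and 831 CPM in fl/fl EBd2 and at 378 and 379 CPM in KO EBd2. In ES cells it had been at 891 and 898 CPM in fl/fl and at 774 and 789 CPM in KO, so that the KO EBd2 libraries were the lowest of the 4 groups. The change in EBd2 was -1.17 ± 0.04 (edgeR adjusted p = 5.94e-10), or -55.7%. Rpl13a, a large subunit protein, stood at 1846 and 1735 CPM in fl/fl EBd2 and at 860.2 and 784 CPM in KO EBd2 (-1.12 ± 0.05, edgeR adjusted p = 9.99e-09). Rpl5 went from 83.4 and 77.0 CPM to 38.7 and 37.4 CPM (-1.07 ± 0.08), and Rps10 from 628 and 594 CPM to 299 and 281 CPM (-1.07 ± 0.05). For each of these 4 genes, the largest falls among the core genes, both KO libraries of EBd2 were below both fl/fl libraries, as they were for 39.6% of all genes tested.

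**Figure D1:**
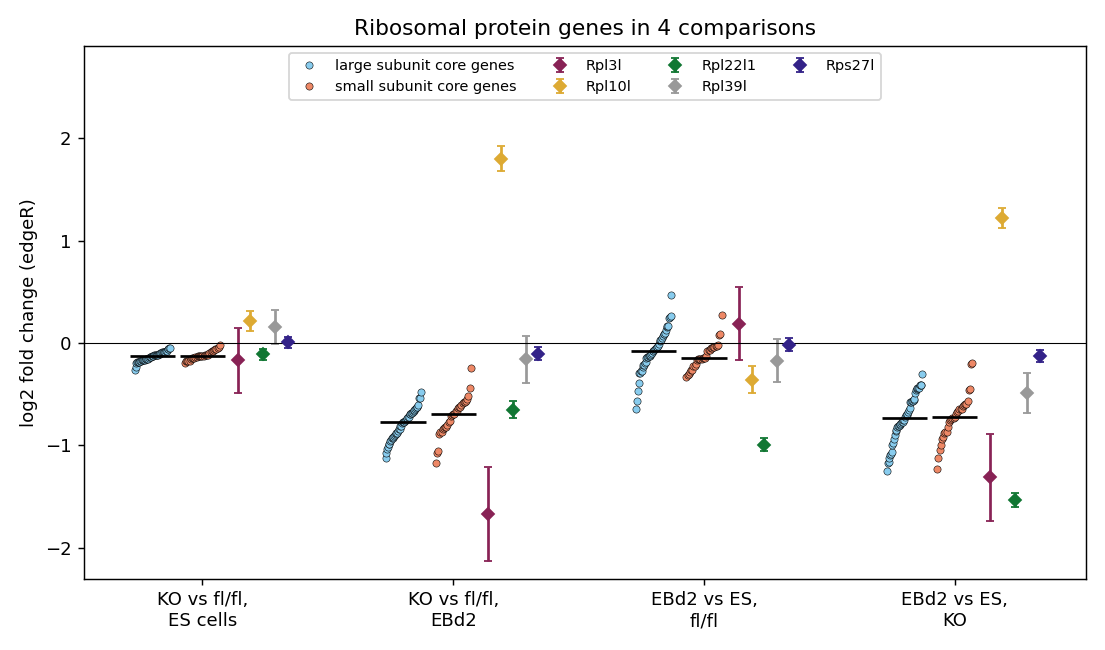
Log2 fold change by edgeR (y axis) of each of the 46 large (blue) and 31 small (orange) subunit core genes, sorted, with their medians as lines, and of the 5 paralogs ± 1 SE, in 4 comparisons (x axis). All 77 core genes lie below 0 in KO against fl/fl EBd2 and in EBd2 against ES cells in KO, while Rpl10l lies above 0 in both.

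The remaining named core genes fell by amounts between those of Rps26 and Rps29. Rpl3 (-1.04 ± 0.04), Rps18 (-1.05 ± 0.06) and Rpl10 (-0.98 ± 0.06), which is needed for the last steps of large subunit assembly, fell by about as much as Rpl13a. Rpl11, the partner of RPL5 in binding MDM2, fell by 0.95 ± 0.06 and Rpl23, another MDM2 binder, by 0.86 ± 0.04 on the log2 scale. Rps6, the substrate of the S6 kinases, changed by -0.87 ± 0.04, Rps4x by -0.89 ± 0.03 and Rpsa, also known as a laminin receptor, by -0.82 ± 0.04. The stalk proteins changed less, Rplp0 by -0.66 ± 0.03, Rplp1 by -0.72 ± 0.05 and Rplp2 by -0.54 ± 0.04. Rps27a, which is made as a fusion to ubiquitin, changed by -0.67 ± 0.04, Rps19 by -0.60 ± 0.06, Rpl38 by -0.74 ± 0.07 and Rpl36a by -0.77 ± 0.05. Rps29 fell least. It was chosen after its values were seen, and stood at 328 and 307 CPM in fl/fl EBd2 and at 281 and 254 CPM in KO EBd2 (-0.25 ± 0.05, edgeR adjusted p = 0.00192).

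In fl/fl cells the step from ES cells to EBd2 lowered more ribosomal protein genes than it raised. Of the 77 core genes 9 were called higher and 37 lower, where 28.9% of all genes tested were higher, 30.1% lower and 59.0% changed in either direction, and the median was -0.10 (-0.02 over all genes tested). With the counts of -ps pseudogene rows added to their genes, 4 core genes were called higher and 43 lower. In the reported fit the large subunit held 8 of the 9 that rose. Rpl5 rose most, from 55.1 and 60.3 CPM in fl/fl ES cells to 83.4 and 77.0 CPM in fl/fl EBd2 (0.47 ± 0.07, edgeR adjusted p = 8.04e-05). Rps12 went from 669 and 706 CPM to 815 and 851 CPM (0.28 ± 0.04, edgeR adjusted p = 6.59e-05), a call that was lost when the counts of its -ps pseudogene rows were added (0.0836). Rpl38 was higher too (0.24 ± 0.07, edgeR adjusted p = 0.00982), but not when the lot 1 library of fl/fl ES cells (0.0746) or of fl/fl EBd2 (0.154) was left out. Rpl10a rose by 0.26 ± 0.03 (edgeR adjusted p = 3.61e-05), and with its pseudogene rows added it was instead lower (-0.10, edgeR adjusted p = 0.0419). Rpl12, a protein at the base of the stalk, fell most of the core genes, from 149.8 and 147 CPM to 103 and 88.5 CPM (-0.64 ± 0.06), followed by Rpl39 at the peptide exit tunnel (-0.56 ± 0.05). Rpl3 (-0.39 ± 0.04) and Rps10 (-0.33 ± 0.05) fell as well.

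In KO cells the same step lowered every core gene. All 77 were called lower between KO ES cells and KO EBd2, with a median of -0.73, where 33.1% of all genes tested were lower, 31.7% higher and 64.8% changed in either direction. DESeq2 called 77 as well. With library size only 75 were called, without Rps12 (edgeR adjusted p = 0.179) and Rps29 (0.351), and 76 without the KO EBd2 library of lot 2. Rpl12 fell from 144 and 134 CPM in KO ES cells to 56.3 and 60.9 CPM in KO EBd2 (-1.25 ± 0.06, edgeR adjusted p = 2.37e-08). Rps10 (-1.23 ± 0.05), Rpl13a (-1.17 ± 0.05) and Rpl3 (-1.16 ± 0.04) followed. Rpl5 fell by 0.48 ± 0.07 on the log2 scale in KO, where it rose in fl/fl.

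The difference between genotypes was larger in EBd2 than in ES cells for nearly all core genes. The interaction of genotype and stage, which tests that difference itself, was called below 0 for 76 of 77 core genes, with a median of -0.64, where 25.7% of all genes tested were called below 0, 22.4% above 0 and 48.0% in either direction. Rps29 was not called (-0.16 ± 0.07, edgeR adjusted p = 0.0853). Rps26 (-0.98 ± 0.05), Rpl5 (-0.96 ± 0.10) and Rpl13a (-0.95 ± 0.07) had the most negative values among the named core genes. Over the 77 core genes, the KO change in ES cells and the KO change in EBd2, which share no library, had a Pearson r of 0.61 and a Spearman's rho of 0.65. The step to EBd2 in fl/fl and in KO, which also share no library, had an r of 0.78 and a rho of 0.77. These are correlations across genes, which are not independent replicates, and each gene has the same length and base composition in both comparisons.

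**Figure D2:**
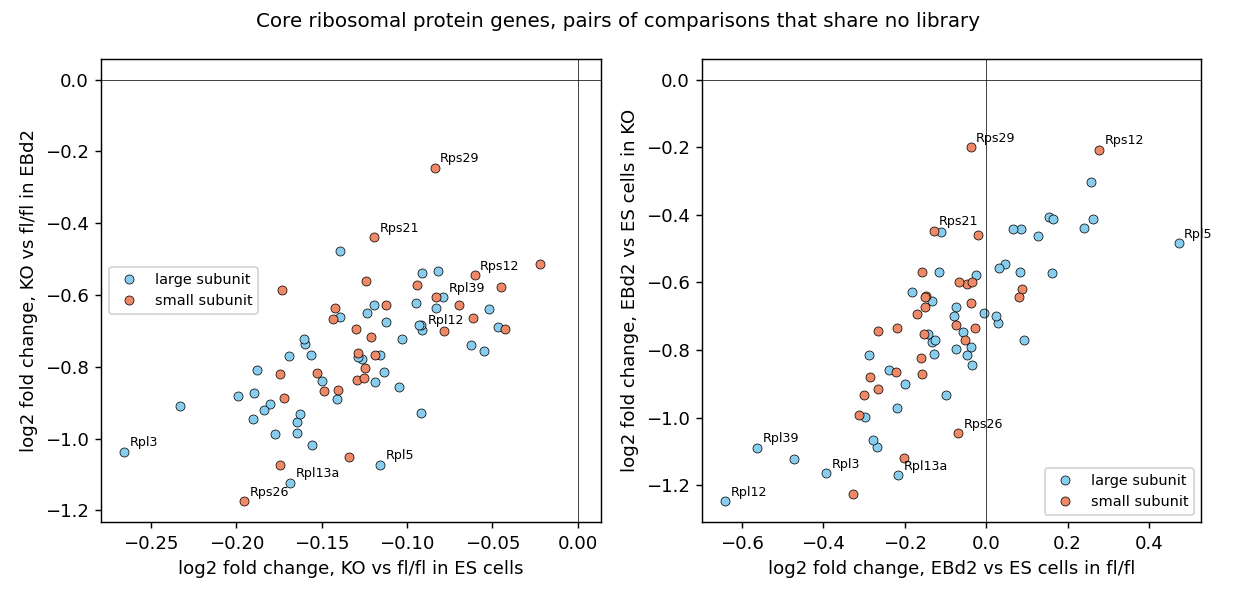
Log2 fold change of the 77 core genes in 1 comparison against that in another that shares no library with it, 1 point per gene: KO against fl/fl in ES cells and in EBd2, and EBd2 against ES cells in fl/fl and in KO. Genes lower in one comparison tended to be lower in the other (r = 0.61 and 0.78), and in EBd2 the KO changes reach -1.17 where in ES cells they end at -0.27.

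Within each library, the share of all counts that fell on the 94 members needs no scaling between libraries. It was 6.30% and 6.39% in the fl/fl and 6.17% and 5.92% in the KO ES cell libraries, and 5.86% and 5.70% in the fl/fl and 4.0002% and 3.84% in the KO EBd2 libraries. Both KO EBd2 libraries were below the other 6, which ranged from 5.70% to 6.39%. Averaged over stages the share was 1.08 points lower in KO, and averaged over genotypes it was 1.34 points lower in EBd2. In an exact two-sided permutation test within strata both had p = 0.0556, the smallest the 36 arrangements allow, and p = 0.0833 after adjustment over 12 such tests, so the design cannot reach 0.05. Counts on the 318 rows named as pseudogenes (-ps), 317 of them of a member gene, also differed: 0.772% to 0.774% of counts in fl/fl ES cells, 0.735% to 0.784% in KO ES cells, 0.598% to 0.657% in fl/fl EBd2 and 0.432% to 0.466% in KO EBd2.

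The balance of the subunits shifted little. Counts on small subunit core genes over those on large subunit core genes had a ratio of 0.708 and 0.704 in the fl/fl and 0.718 and 0.715 in the KO ES cell libraries, and 0.689 and 0.700 in the fl/fl and 0.726 and 0.736 in the KO EBd2 libraries. The KO libraries were above the fl/fl libraries at both stages, by 0.0232 on average (exact permutation p = 0.0556, adjusted p = 0.0833). The direction depended on the measure. With the ratio taken from the median log2 CPM of each subunit, the KO libraries differed from fl/fl by -0.0296 on average (p = 0.5, exact). Between stages the ratio differed by 0.00168 (exact permutation p = 0.833).

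**Figure D3:**
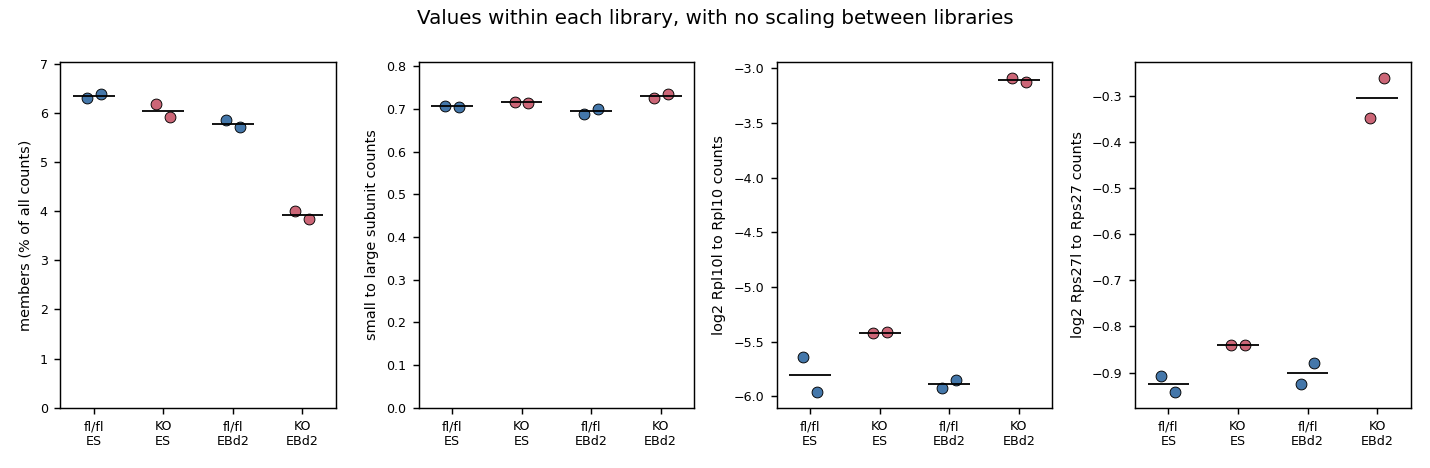
Values within each of the 8 libraries, by group: the percent of counts on the 94 members, the ratio of small to large subunit counts, and the log2 ratios of Rpl10l to Rpl10 and of Rps27l to Rps27. The KO EBd2 libraries have the lowest share (4.0002% and 3.84%) and the highest ratios of both paralogs to their parents.

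Against this common fall, the 5 paralogs followed separate courses. None of the 5 passed in KO against fl/fl ES cells in the reported edgeR fit or by DESeq2, or at an unadjusted p under 0.05. With no filter on low counts Rpl22l1 was called lower there (-0.11, edgeR adjusted p = 0.041). In KO against fl/fl EBd2 edgeR called 1 higher (Rpl10l) and 2 lower (Rpl22l1 and Rpl3l), while Rps27l and Rpl39l did not pass.

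Rpl10l (chr12:66283379-66284401, minus strand) is an autosomal gene derived from the X-linked Rpl10, and its coding sequence is identical to that of Rpl10 over 84.7% of the aligned bases, with no shared run longer than 23 bases. It was at 12.7 and 11.04 CPM in the fl/fl and 14.2 and 13.4 CPM in the KO ES cell libraries, and 9.04 and 9.46 CPM in the fl/fl and 34.6 and 30.0 CPM in the KO EBd2 libraries. Both KO EBd2 libraries lay above all other libraries. The rise in KO over fl/fl EBd2 was 3.48-fold (1.80 ± 0.12, edgeR adjusted p = 1.89e-07), and from KO ES cells to KO EBd2 it was 1.22 ± 0.10 (edgeR adjusted p = 6.03e-07). It was the only member called higher in KO EBd2, and its interaction was above 0 (1.58 ± 0.16, edgeR adjusted p = 1.12e-05). In ES cells the KO libraries were above the fl/fl libraries, but the change did not pass (0.22 ± 0.10, edgeR adjusted p = 0.145). From fl/fl ES cells to fl/fl EBd2 it was lower (-0.36 ± 0.13, edgeR adjusted p = 0.0348), a call lost by DESeq2 (0.101) and on leaving out the lot 1 library of fl/fl ES cells (0.17), or that of lot 1 (0.143) or lot 12 (0.102) of fl/fl EBd2.

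Rpl10 moved the other way, so that the pair drew closer. Its level was 636 and 689 CPM in the fl/fl and 609 and 573 CPM in the KO ES cell libraries, and 551 and 548 CPM in the fl/fl and 294 and 262 CPM in the KO EBd2 libraries. The log2 ratio of Rpl10l to Rpl10 counts was -5.64 and -5.96 in fl/fl ES cells, -5.42 in both KO ES cell libraries, and -5.92 and -5.85 in the fl/fl and -3.09 and -3.13 in the KO EBd2 libraries. The KO libraries were above the fl/fl libraries at each stage, by 0.38 in ES cells and by 2.78 in EBd2 (mean 1.58, exact permutation p = 0.0556, adjusted p = 0.0833). Even there Rpl10l remained a small fraction of the pair.

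Most tested genes of a list drawn up for male germ cells were, like Rpl10l, higher in KO than in fl/fl EBd2. Of 10 markers 6 had enough counts to be tested, and in KO against fl/fl EBd2 edgeR called 5 higher (Dazl, Sycp1, Ddx4, Ldhc and Tex101) and 1 lower (Sycp3), with a median of 1.14, where 30.7% of all genes tested were higher and 31.5% lower. With library size only, 5 were called higher and none lower. Their summed level was 98.1 to 98.4 CPM in fl/fl ES cells, 96.0 to 97.0 CPM in KO ES cells, 60.8 to 64.6 CPM in fl/fl EBd2 and 97.1 to 101 CPM in KO EBd2. From KO ES cells to KO EBd2, where Rpl10l also rose, edgeR called 2 of the 6 tested markers higher and 1 lower. Among all genes tested, 31.7% were higher and 33.1% lower at that step. The genes of late spermatogenesis Tnp1 and Pgk2 were at 0 in every library, and Prm1 was at 0 in 5 of 8 and at most at 0.115 CPM. The part of these markers in the Rpl10l result was not tested.

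Rps27l (chr9:66946086-66949516, plus strand) showed no called change while its parent fell. It was at 181 and 186 CPM in the fl/fl and 192 and 176 CPM in the KO ES cell libraries, and 189.7 and 173 CPM in the fl/fl and 178 and 159.6 CPM in the KO EBd2 libraries, so that the KO EBd2 libraries overlapped those of KO ES cells and fl/fl EBd2 and lay just below those of fl/fl ES cells. The change in KO against fl/fl EBd2 did not pass (-0.10 ± 0.06, edgeR adjusted p = 0.18), though it was called lower with no filter on low counts (0.0475) and without the KO EBd2 library of lot 1 (0.0388). From KO ES cells to KO EBd2 it did not pass either (-0.13 ± 0.06, edgeR adjusted p = 0.0768), but did so without that library (0.0168) or that of lot 12 of KO ES cells (0.0294), with no filter on low counts (0.000414), and with a replicate block of lots 1, 2 and 12 (0.0292) or of lot 1 against the others (0.0417). Rps27 was at 339.7 and 357 CPM in the fl/fl and 344 and 316 CPM in the KO ES cell libraries, and 360.4 and 319 CPM in the fl/fl and 227 and 191 CPM in the KO EBd2 libraries (-0.70 ± 0.08 in EBd2, edgeR adjusted p = 1.35e-05). The log2 ratio of Rps27l to Rps27 was therefore -0.91, -0.94, -0.84 and -0.84 in the ES cell libraries, and -0.93 and -0.88 in the fl/fl and -0.35 and -0.26 in the KO EBd2 libraries. It was higher in KO by 0.34 on average and by 0.60 in EBd2 (exact permutation p = 0.0556, adjusted p = 0.0833). In the windows shown above the pyrimidine run of Rps27 spans the annotated start, while that of Rps27l lies before it, at one of the 2 starts that RefSeq lists for the gene.

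Other targets of p53 were listed because Rps27l is one. In KO against fl/fl EBd2 8 of 15 rose and 5 fell (median 0.35, and 10 and 2 with library size only), where 30.7% of all genes tested rose and 31.5% fell. Those with the smallest p all rose: Perp (2.97 ± 0.07), the kinase Plk2 (1.60 ± 0.05) and the cell cycle inhibitor Cdkn1a (1.18 ± 0.04). The lowest value in the list was -0.89. In KO against fl/fl ES cells 4 rose and 5 fell, with a median of -0.02 (0.05 with library size only). Over all genes tested there, 10.9% rose and 12.8% fell.

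Rpl22l1 (chr3:28805436-28807424, plus strand) followed the stage more than the genotype. It was at 188 and 198 CPM in the fl/fl and 188 and 169.9 CPM in the KO ES cell libraries, and 102 and 92.7 CPM in the fl/fl and 65.4 and 58.8 CPM in the KO EBd2 libraries. All EBd2 libraries were below all ES cell libraries, and the KO EBd2 libraries were the lowest. It fell with the step to EBd2 by 0.99 ± 0.07 on the log2 scale in fl/fl and by 1.53 ± 0.07 in KO (edgeR adjusted p = 2.12e-07 and 7.7e-09), the largest fall in both among members at 5 CPM or more. Its parent Rpl22 changed by -0.20 ± 0.05 and -0.90 ± 0.05 over the same steps. The log2 ratio of the pair went from -1.73, -1.67, -1.72 and -1.80 in the ES cell libraries to -2.49, -2.49, -2.35 and -2.42 in EBd2, a mean difference of -0.71 (exact permutation p = 0.0556, adjusted p = 0.0833). Between genotypes the ratio differed by 0.0236 (p = 0.5, exact), since both genes fell in KO EBd2, Rpl22l1 by 0.65 ± 0.08 and Rpl22 by 0.76 ± 0.05 on the log2 scale.

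Rpl39l and Rpl3l were scarce. Rpl39l (chr16:10170226-10174911, plus strand) was at 3.00006 to 4.68 CPM in all 8 libraries, and its change in KO against fl/fl EBd2 did not pass (-0.16 ± 0.23, edgeR adjusted p = 0.61). Its parent Rpl39 was at 432 and 438 CPM in the fl/fl and 424 and 398 CPM in the KO ES cell libraries, and 302 and 287 CPM in the fl/fl and 205 and 182 CPM in the KO EBd2 libraries. The log2 ratio of Rpl39l to Rpl39 thus rose with both factors, by 0.51 with the step to EBd2 and by 0.34 with KO (exact permutation p = 0.0556 and adjusted p = 0.0833 for each), at libraries with few counts. The fall of Rpl39l from KO ES cells to KO EBd2 (-0.49 ± 0.19, edgeR adjusted p = 0.0459) was lost under 11 of the alternatives, DESeq2 (0.326) and thinning to equal depth (0.148) among them.

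Rpl3l (chr17:24727820-24736143, plus strand) was at 1.16 to 1.89 CPM in the ES cell and fl/fl EBd2 libraries and at 0.588 and 0.537 CPM in KO EBd2, where each library held 6 counts. It was called lower in KO against fl/fl EBd2 (-1.67 ± 0.46, edgeR adjusted p = 0.008), but not by DESeq2 (0.051). Its log2 ratio to Rpl3 is given with no test because of these low counts, and had means of -10.8 and -10.7 in fl/fl and KO ES cells and of -10.2 and -10.8 in fl/fl and KO EBd2. The 10 muscle markers summed to 44.7 to 45.2 CPM in fl/fl ES cells, 62.4 to 66.3 CPM in KO ES cells, 20.2 to 21.1 CPM in fl/fl EBd2 and 31.1 to 31.3 CPM in KO EBd2. The sum in KO EBd2 was thus above that in fl/fl EBd2 and below those of both ES cell groups, and its part in the Rpl3l result was not tested. Of the 8 tested, edgeR called 2 higher and 1 lower in KO against fl/fl EBd2, the called genes being Des, Myh7 and Actc1. Over all genes tested there, 30.7% were higher and 31.5% lower. In KO against fl/fl ES cells it called 3 of the 8 higher (Acta1, Myh7 and Actc1) and none lower, with a median of 0.78. Among all genes tested in ES cells, 10.9% were higher and 12.8% lower. Myog and Myl2, which define skeletal and ventricular muscle, were at most at 0.179 CPM in any library.

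**Figure D4:**
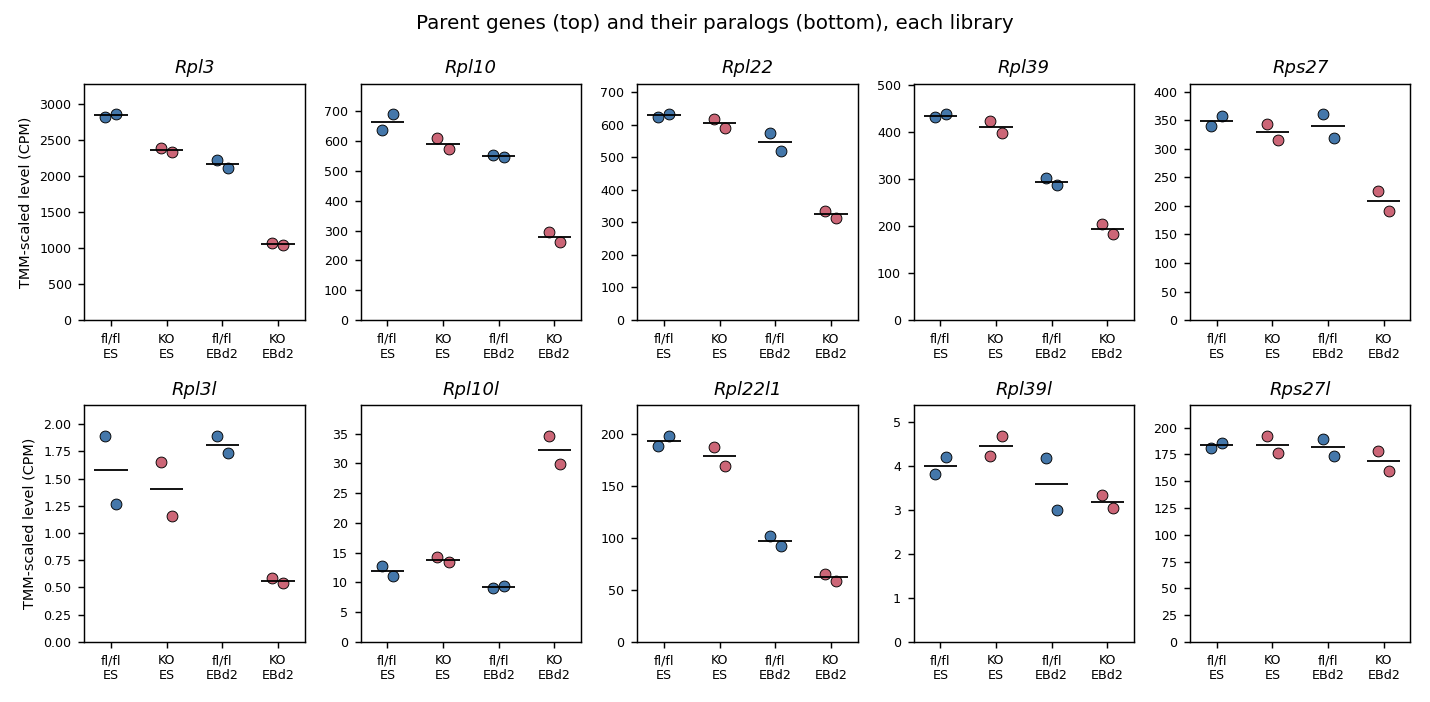
Level of each of the 5 paralogs and its parent in every library (CPM, TMM-scaled), 1 point per library, by group, with lines at the group means and axes that start at 0. Rpl10l is highest in the 2 KO EBd2 libraries (34.6 and 30.0 CPM), where all 5 parents are at their lowest, while Rps27l is at a like level in all groups.

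The 11 further copies include genes annotated as processed pseudogenes, and their counts may hold reads of the parent. Rpl32l and Rps12l1 had too few counts to be tested, with at most 0.195 CPM in any library. In KO against fl/fl EBd2 6 of the 9 tested fell: Rpl36al, Rpl37rt, Rpl7l1, Rps3a2, Rps3a3 and Rps4l. Over all genes tested there, 31.5% were lower. Rps3a2 (-0.76 ± 0.05) and Rps3a3 (-0.60 ± 0.04) moved as the core genes did, and only 9.83% of the 50-base stretches of Rps3a2 are unique. Rps4l, a copy of X-linked Rps4x, rose from 196 and 191 CPM in fl/fl ES cells to 296 and 305 CPM in fl/fl EBd2 (0.64 ± 0.04, edgeR adjusted p = 7.49e-08), and from 189 and 186 CPM to 245 and 232 CPM in KO (0.35 ± 0.04, edgeR adjusted p = 8.09e-06). It and Rpl10l were the 2 members called higher at the step to EBd2 in KO. Rpl7l1, a homolog of RPL7 with a role in ribosome assembly, rose in fl/fl at that step (0.33 ± 0.04) and was lower in KO against fl/fl EBd2 (-0.31 ± 0.04, edgeR adjusted p = 6.21e-05), though not with library size only (0.0888). Rps23rg1, a retroposed copy of Rps23, fell at that step in fl/fl (-0.72 ± 0.13). Rps27rt shares its whole coding sequence with Rps27 and ranged from 0 to 7.33 CPM with all groups overlapping. Rpl6l was at 0 in 3 of the 4 EBd2 libraries and at 0.324 to 1.53 CPM in ES cells, so no fold is given, although edgeR called it lower in fl/fl EBd2. Rps19bp1 was lower in KO against fl/fl EBd2 (-0.52 ± 0.11, edgeR adjusted p = 0.00134).

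Genes that work with these proteins were taken from lists. In KO against fl/fl EBd2, 30.7% of all genes tested were called higher, 31.5% lower and 62.2% in either direction. In ES cells these shares were 10.9%, 12.8% and 23.7%. Beside each count in EBd2 stands the count with scaling by library size only where the list moved, since that setting raised the median of all genes there by 0.23. Fau and Rack1, which are parts of the small subunit or bound to it but fall outside the naming pattern, were both called lower in KO against fl/fl EBd2 (-0.68 ± 0.06 and -0.68 ± 0.04). Of 16 other messages of the TOP class, all were called lower in KO EBd2, with a median of -0.65 (13 with library size only, median -0.42). Among them were the elongation factor Eef2 (-1.19 ± 0.04), the initiation factor Eif4b (-1.17 ± 0.03) and Hnrnpa1 (-0.98 ± 0.03). In KO ES cells 9 of the 16 fell (median -0.11, and 4 with 1 rise by library size only), Eef2 by 0.32 ± 0.03 on the log2 scale. Of 10 genes that regulate this class, 3 rose and 7 fell in KO EBd2 (median -0.30, and 3 of each with library size only). Larp1, which binds the TOP motif, was at 626 and 649 CPM in fl/fl EBd2 and at 339 and 314 CPM in KO EBd2 (-0.97 ± 0.04, edgeR adjusted p = 6.19e-09). The related Larp4 (-0.90 ± 0.04) and Eif4ebp1, an inhibitor of initiation under mTOR (-0.40 ± 0.04), fell with it. These were named for their smallest p, and the highest value among the 10 was 0.54.

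The machinery that builds ribosomes also differed. For its lists too, the shares of all genes tested in KO against fl/fl EBd2 are those given above. Of 44 assembly factors 38 fell in KO against fl/fl EBd2 (median -0.53, and 27 with 6 that rose by library size only), such as nucleolin Ncl (-0.90 ± 0.04), the pseudouridine synthase Dkc1 (-0.77 ± 0.04) and Noc2l (-0.72 ± 0.03). At the step from ES cells to EBd2 34 of the 44 rose in fl/fl (median 0.41), and 18 rose and 14 fell in KO (median 0.01), the latter becoming 24 and 6 with library size only (median 0.16). Of the core ribosomal proteins 37 fell and 9 rose at that step in fl/fl. Over all genes tested, 28.9% rose and 30.1% fell at that step in fl/fl, and 31.7% rose and 33.1% fell in KO. Of 7 dedicated chaperones of ribosomal proteins 5 fell in KO EBd2 (median -0.60, and 4 with 2 that rose by library size only), among them Bccip (-0.91 ± 0.06), Pdcd2l (-0.80 ± 0.09) and Grwd1 (-0.60 ± 0.06). Of 14 tested genes of RNA polymerase I and its factors, 2 rose and 7 fell (median -0.17), which became 6 and 4 with library size only (median 0.06). Those with the smallest p were lower: the factors Ubtf (-0.69 ± 0.04) and Rrn3 (-0.38 ± 0.04) and the subunit gene Twistnb (-0.71 ± 0.07). The highest value in that list was 0.44. Of the 78 proteins of the mitochondrial ribosome 7 rose and 40 fell (median -0.20), and with library size only 23 rose and 18 fell (median 0.03), so that the direction of this list and of the polymerase list turned with the scaling. Examples by TMM were Mrpl11 at -0.88 ± 0.07, Mrps5 at -0.58 ± 0.04 and Mrps6 at 1.29 ± 0.09.

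Markers of fibroblast feeder cells, which ES cells are often grown on, moved between the groups as well. The 10 markers summed to 613 to 648 CPM in fl/fl ES cells, 723 to 783 CPM in KO ES cells, 53.8 to 57.3 CPM in fl/fl EBd2 and 192 to 208 CPM in KO EBd2. In EBd2 edgeR called 7 of the 9 tested higher in KO, with a median of 2.38, where 30.7% of all genes tested were higher, and Lum was at 0 in 1 library of each genotype. In EBd2 the sum was thus higher in the KO libraries, where the share of counts on ribosomal proteins was lowest. Between stages it was the other way, as the ES cell libraries had the higher sums and also the higher shares (5.92% to 6.39%). In KO against fl/fl ES cells edgeR called 5 of the 9 markers higher and none lower, where 10.9% of all genes tested were higher. Their part in the ribosomal protein results was not tested. Markers of ES cells and early differentiation differed between the EBd2 groups too: of 9, edgeR called 3 higher in KO (T, Klf4 and Nanog) and 5 lower (Otx2, Pou3f1, Fgf5, Esrrb and Pou5f1), with a median of -0.53, and Zfp42 did not pass. Among all genes tested, 30.7% were higher and 31.5% lower. The primitive streak marker T (brachyury) was at 68.2 and 75.9 CPM in KO EBd2 and at 0.404 to 1.50003 CPM in the other 6 libraries. The epiblast factor Otx2 was at 81.5 and 96.0 CPM in fl/fl EBd2 and at 8.85 to 10.8 CPM in the other 6 libraries. The part of such differences in cell state was not tested either.

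**Figure D5:**
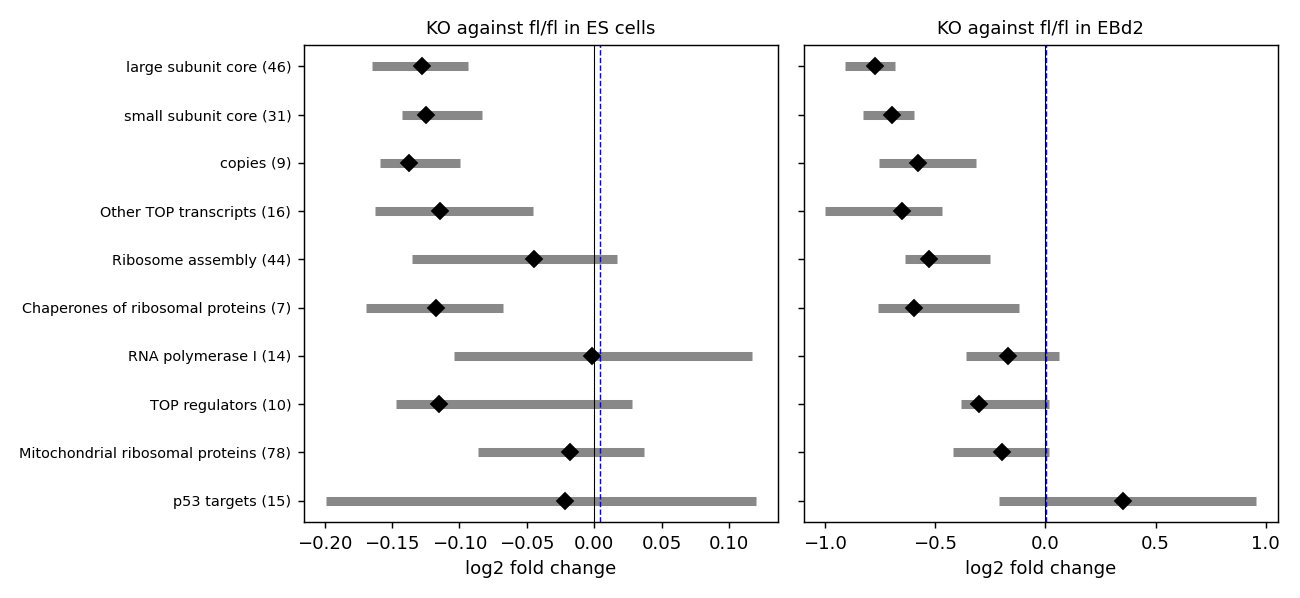
Median (diamond) and range between the quartiles (bar) of log2 fold changes in each gene list, with the number tested in parentheses, for KO against fl/fl in ES cells and in EBd2. The dashed line is the median of all genes tested, and the 2 x axes have different scales. In EBd2 the medians of the large (-0.77) and small (-0.70) subunit genes, other TOP messages (-0.65) and assembly factors (-0.53) lie below that line, and that of p53 targets (0.35) above it.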

How the data were processed

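RNA from 8 libraries (4 groups of 2, set by the sample titles) was counted per gene. The deposited table holds raw counts per gene symbol, made by the authors, with no normalization. The submitters' processing notes name Trim Galore 0.6.7, GRCm38 and mm10. The sources used here give no aligner, counter, annotation or strand setting, nor how reads with several matches were handled.

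Counts were tested in R 4.3.3 with edgeR 4.0.16: filterByExpr on the 4 groups (16542 genes and 92 of the 94 members left), TMM scaling, 1 fit of 4 group means (glmQLFit, 4 residual and 7.05 prior degrees of freedom, common biological coefficient of variation 3.4%), and two-sided glmQLFTest for 5 contrasts. Adjusted p-values are Benjamini-Hochberg values over all genes tested, at a threshold of 0.05. Each SE is |log2 fold change| over the root of the F statistic. Values within a library were compared by an exact permutation test over 36 arrangements, with 0.5 added to counts in log2 ratios. The edgeR procedure was tried on simulated counts, and the permutation test on constructed values with a known shift. The members and lists were chosen with earlier results of these data known. The named members are the 5 paralogs and their parents, 14 further core genes chosen whatever their p, and the 4 called members with the largest rise and fall in each contrast that reach 5 CPM in the higher group. Up to 3 called genes with the smallest p were named per list. Promoters, starts and sequences are from RefSeq (GRCm38), gene positions and transcript stretches from GENCODE vM21. Alternatives were RLE scaling, library size only, TMM without members and mitochondrial genes, other filters, DESeq2 1.42.0, thinning to 7858452 counts, lots as blocks, pseudogene rows added to their genes, fits of the libraries of 1 contrast, and leaving out each library. 1 listed gene outside the member set is not reported here.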

Additional observations from a re-analysis of the deposited data

Results flagged for a closer look

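For 31 of the 34 named members the difference between KO and fl/fl was itself different in EBd2 and in ES cells, by the interaction test of edgeR at an adjusted p under 0.05. Among all genes tested, 48.0% were called in either direction. Some named members were chosen for their large changes, in this test among others, so the count is partly set by that choice. Within these 31, only Rpl10l had a value above 0, at 1.58 on the log2 scale. The most negative was that of Rpl3l (-1.50, adjusted p = 0.0457), which rests on few counts. That call was lost with library size only (0.0691), by DESeq2 (0.289), after thinning (0.156), with a replicate block of lots 1, 2 and 12 (0.213) and without any 1 of 6 libraries (0.0819 to 0.152), those of fl/fl ES cells lot 2, KO ES cells lot 1, fl/fl EBd2 lots 1 and 12, and KO EBd2 lots 1 and 2. It was followed by Rps26 (-0.98), Rpl5 (-0.96), Rpl13a (-0.95), Rps18 (-0.92), Rps10 (-0.90) and Rpl10 (-0.82).

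Of the other large subunit genes, Rpl3 had -0.77, Rpl11 -0.76, Rpl23 -0.75, Rpl22 -0.70, Rpl8 -0.68, Rpl10a -0.68, Rpl38 -0.68, Rpl36a -0.61, Rpl12 -0.61 and Rpl39 -0.53. The stalk genes had -0.52 (Rplp0), -0.62 (Rplp1) and -0.45 (Rplp2). Of the small subunit genes, Rps6 had -0.72, Rps4x -0.71, Rpsa -0.67, Rps27 -0.62, Rps27a -0.52, Rps19 -0.52 and Rps12 -0.48. The paralog Rpl22l1 had -0.54, and the copies Rpl7l1 and Rps4l had -0.36 and -0.29, the call of Rps4l being lost with library size only (-0.13, adjusted p = 0.0523). The 3 named members that did not pass were Rpl39l, Rps27l and Rps23rg1.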

How the results depend on the processing

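In KO against fl/fl ES cells 40 members were called, but only 11 with library size only (1 higher, 10 lower), 23 after thinning, 16 with a replicate block of lots 1, 2 and 12, and 9 to 42 when single libraries were left out. The lot number 1 is the one shared by all groups, and libraries of lot 1 did not deviate together (correlations between -0.12 and 0.13 over 11449 genes), so the block is a shared number and not a known pairing. In the other contrasts the replicate block changed no count of called members by more than 1.5 times, and it moved the median of the interaction from -0.62 to -0.68. Library size only moved the median of members to -0.054 in ES cells, -0.50 in EBd2, -0.55 for the step to EBd2 in KO and -0.46 for the interaction, while it moved the median of all genes to 0.07, 0.23, 0.14 and 0.15. A minimum mean of 5 CPM gave -0.65 for KO against fl/fl EBd2. The small to large subunit ratio between genotypes turned to -0.03 (-0.0296) with median log2 CPM, and the log2 ratio of Rpl3l to Rpl3 between genotypes went from -0.24 to -0.83 after thinning. Rpl10a in fl/fl EBd2 against ES cells reversed to -0.10 with pseudogene rows added, and Rpl7l1 in KO EBd2 against ES cells, at -0.02 in the reported fit, reached 0.12 with library size only. The causes were not tested. Of all settings for single named members 3054 values kept their call or lack of one, 112 lost the call and 18 gained it. Another 2 reversed direction with a call in at least 1 of the fits compared. Changes of sign with no call in either fit are counted among the 3054. Rpl3l in KO against fl/fl ES cells, for example, ranged from -0.44 to 0.15 when single libraries were left out. EBd2 libraries had at most 10055667 counts, which limits Rpl3l, Rpl39l, Rpl6l and Rps27rt.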
